A study of Mus musculus with 12 samples.

Results

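The complement and coagulation systems are made up largely of proteins that hepatocytes secrete into blood, and 45 of their genes were followed in primary mouse hepatocytes. The genes were taken by name from the 16728 genes listed, with no threshold on measured values. The choice was made with earlier results of these data known, so shares set beside those of all genes are descriptive. They comprise 7 genes of the classical and lectin pathways, 3 of the alternative pathway, 6 terminal complement components and 6 complement regulators. The coagulation side holds 7 vitamin K-dependent proteins, 5 contact-system genes, 4 genes grouped around tissue factor and factor XIII B, 4 of the plasminogen system and 3 cystatin-type plasma glycoproteins. A total of 44 were among the 12275 genes that passed the filter on low counts. The exception was Cfd, which encodes factor D of the alternative pathway and had 2 reads summed over the libraries of WT AC, WT FAC and KO AC and 3 over those of KO FAC.

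The hepatocytes came from liver of C57BL/6 mice of 2 genotypes, wild type (WT) and Fxr-/- (KO). They were kept in medium with serum in all groups. Cells of each genotype received either AC or FAC, both at 100 µM, for 24 h. Neither abbreviation is spelled out in the labels, and the title of the series names iron overload as its subject. The 4 groups are written below as genotype and agent (KO FAC is Fxr-/- with FAC). Each had 3 libraries, which the labels number 1 to 3 under AC and 4 to 6 under FAC. Every group thus received 1 of the agents, and no library of untreated cells was used. The labels do not name the Fxr allele or the number of animals, and they do not state that libraries came from separate animals or cultures. The p-values therefore measure the spread between these libraries only, which may be technical.

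As background, complement is a cascade of serine proteases and carrier proteins in which the classical, lectin and alternative pathways meet at the cleavage of C3, after which C5 to C9 assemble a pore in a target membrane. Coagulation is a second protease cascade that ends in thrombin and a fibrin clot, and plasmin, made from plasminogen, dissolves that clot. Fxr, the product of Nr1h4, is a receptor for bile acids that acts in the nucleus and regulates bile acid and lipid metabolism in hepatocytes.

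Library totals ranged from 16464494 to 18335700 estimated reads. Levels per library are given as counts scaled to library size with the TMM factors (CPM). Nr1h4 had CPM of 13, 15.6 and 13.1 in WT AC, 7.0, 6.95 and 7.69 in WT FAC, 9.35, 6.97 and 7.45 in KO AC, and 3.54, 4.45 and 4.89 in KO FAC. Reads of the targeted gene were thus present in every KO library, at a lower level than in the WT libraries under the same agent, with log2 differences (± SE here and below) of -0.81 ± 0.14 (edgeR adjusted p = 0.000535) under AC and -0.75 ± 0.16 (edgeR adjusted p = 0.00157) under FAC. The labels do not say which part of the gene is deleted, so this count checks them only in part. Summed FPKM of 9 hepatocyte markers (Alb, Ttr and others) lay between 13940.3 and 19550.6 per library, a sum to which Alb contributes most. Summed levels of 8 sinusoidal endothelial markers lay between 10.95 and 14.81 FPKM, those of 8 stellate and fibroblast markers between 2.63 and 4.39 in WT and between 0.55 and 1.01 in KO, and those of 5 neutrophil, 3 platelet and 3 mesothelial markers at or below 2.08. The 9 macrophage markers summed to between 336.6 and 714.16 FPKM, while 7 of them, Adgre1, Clec4f and C1qa among them, stayed below 1 FPKM in every library. That sum rests on Cd68, which was higher in KO under both agents and rose with FAC in both genotypes. Of the other 3 tested macrophage markers, Adgre1 and Marco were lower in KO under both agents and fell with FAC in WT. The 6 cholangiocyte markers summed to between 258.2 and 314.25 FPKM in WT and between 53.71 and 101.38 in KO libraries. Of the 4 that were tested, Spp1 was lower in KO under both agents, and 2, Krt19 among them, were higher in KO under FAC. No marker counted here was at 0 in all libraries. Some markers of the macrophage, stellate, neutrophil and platelet lists were not among the genes listed in the data and could not be checked. The KO libraries also divided on the third principal component, where KO AC 1, KO FAC 5 and KO FAC 6 had positive scores (13.47, 3.26 and 27.69) and the other KO libraries negative ones (-22.69 to -9.63).

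The 45 genes took 1.79 to 2.30% of the reads of a library, and Clu alone took 0.587 to 0.954%. On the FPKM scale, which allows for gene length, the levels ran over 5 orders of magnitude in WT AC. Clu, which encodes the secreted chaperone and complement inhibitor clusterin, had 5479.7 ± 263 FPKM (mean ± SD, n = 3 here and below). It was followed by Cpb2 (the fibrinolysis inhibitor TAFI) at 1054 ± 28.6, C3 at 721 ± 25.2, Ahsg at 633 ± 60.5 and Cfb (factor B) at 631 ± 13.2 FPKM. Ahsg and Cfb did not differ beyond their spread, nor did Vtn (290.1 ± 16.5) and Kng1 (289 ± 13.9), at places 7 and 8. Plau, Klkb1, Cd55, Tfpi and Cfd were below 1 FPKM on average in WT AC. In KO FAC the order was Clu (4177 ± 596), Ahsg (1986 ± 161), C3 (858 ± 57.0), Cpb2 (669 ± 20.4), Vtn (658 ± 33.4) and Kng1 (640.2 ± 16.9), where the last 3 did not differ beyond their spread. Hrg moved furthest up this order, from place 30 in WT AC to place 11 in KO FAC, and Cfb went down from place 5 to place 9.

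**Figure D1:**
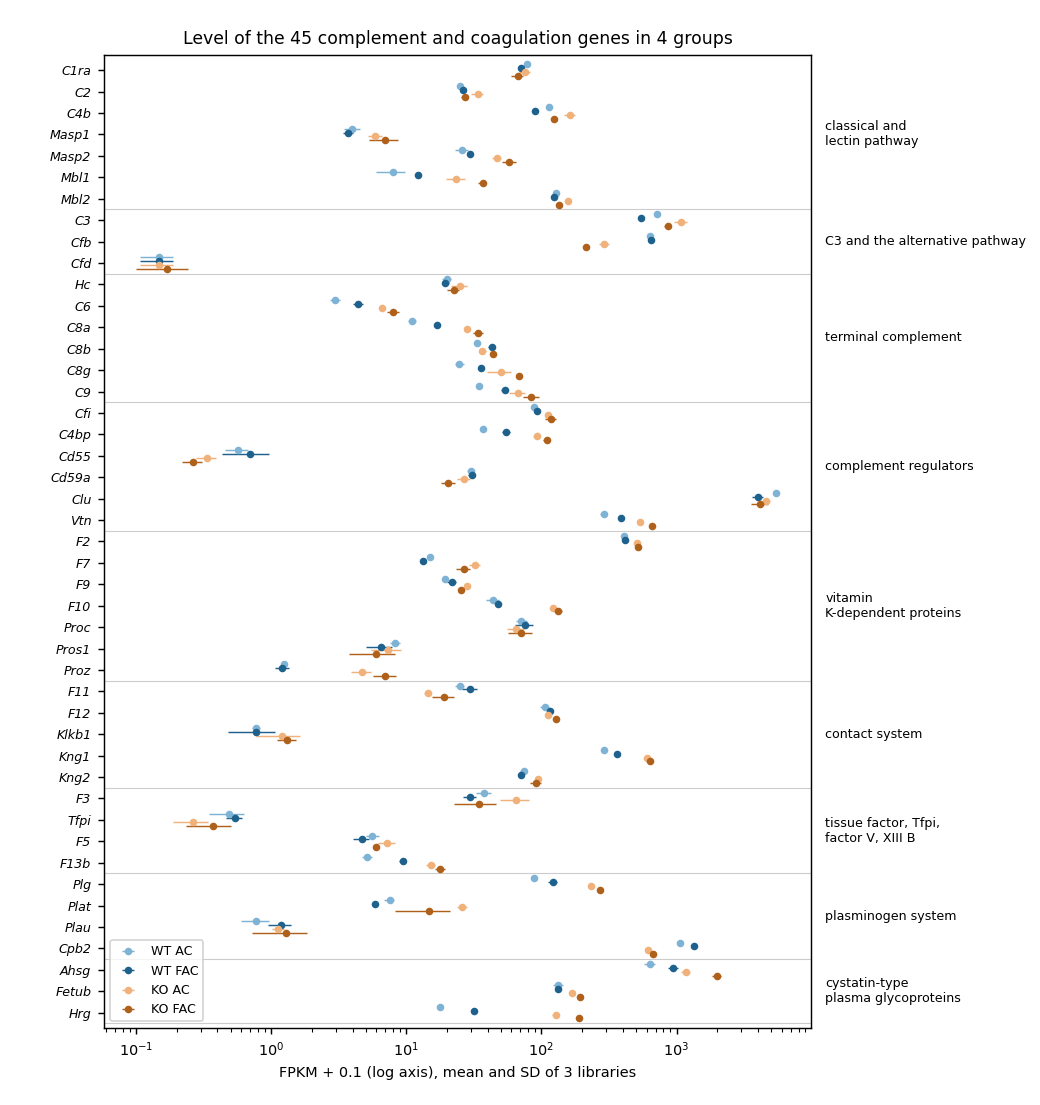
Level of each of the 45 genes as mean FPKM + 0.1 on a log axis, with the SD of 3 libraries as a bar and 1 colour per group; genes stand in the order of their roles. Clu lies furthest right in every group, Cfd furthest left, and the KO points of Hrg stand apart from the WT points.

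Promoter windows of 6 members are shown because they span the patterns reported below. C3, F2 (prothrombin), F10 (factor X), Mbl1 and Hrg had more RNA in KO cells, and Cpb2 had less. Each window holds the 250 bases before the gene's RefSeq start (GRCm38.p6), 5′ to 3′ on the gene's strand. Capitals mark matches, on either strand, to the nuclear receptor half-site AGGTCA, the half-site GTTAAT of HNF1, the core CAAAGT of HNF4 sites or the pattern TTGCNNAA of C/EBP. Their positions are chr17:57228137-57228386 (minus strand) for C3, chr2:91636458-91636707 (minus strand) for F2, chr8:13037058-13037307 (plus strand) for F10, chr14:41151206-41151455 (plus strand) for Mbl1, chr16:22950822-22951071 (plus strand) for Hrg and chr14:75242037-75242286 (plus strand) for Cpb2.
C3: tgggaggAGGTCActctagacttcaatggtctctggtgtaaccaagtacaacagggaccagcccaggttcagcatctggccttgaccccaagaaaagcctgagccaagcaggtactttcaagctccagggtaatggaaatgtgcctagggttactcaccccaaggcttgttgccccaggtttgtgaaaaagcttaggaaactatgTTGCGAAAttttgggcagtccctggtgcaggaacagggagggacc
F2: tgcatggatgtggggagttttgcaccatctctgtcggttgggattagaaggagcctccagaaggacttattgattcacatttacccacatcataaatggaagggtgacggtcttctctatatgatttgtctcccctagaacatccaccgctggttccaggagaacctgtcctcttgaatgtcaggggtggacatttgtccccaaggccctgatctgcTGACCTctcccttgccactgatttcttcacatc
F10: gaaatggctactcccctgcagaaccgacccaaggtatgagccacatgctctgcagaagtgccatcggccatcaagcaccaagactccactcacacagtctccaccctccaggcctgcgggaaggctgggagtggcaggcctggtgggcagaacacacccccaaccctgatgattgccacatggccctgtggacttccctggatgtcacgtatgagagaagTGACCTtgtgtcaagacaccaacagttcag
Mbl1: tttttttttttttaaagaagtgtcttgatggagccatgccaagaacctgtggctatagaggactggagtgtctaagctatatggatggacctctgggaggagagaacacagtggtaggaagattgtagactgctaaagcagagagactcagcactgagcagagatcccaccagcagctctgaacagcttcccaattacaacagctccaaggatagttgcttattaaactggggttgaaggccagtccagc
Hrg: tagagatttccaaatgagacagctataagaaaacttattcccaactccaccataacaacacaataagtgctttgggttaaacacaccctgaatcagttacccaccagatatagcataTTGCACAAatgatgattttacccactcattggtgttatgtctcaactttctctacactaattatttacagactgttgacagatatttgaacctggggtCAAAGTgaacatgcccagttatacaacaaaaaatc
Cpb2: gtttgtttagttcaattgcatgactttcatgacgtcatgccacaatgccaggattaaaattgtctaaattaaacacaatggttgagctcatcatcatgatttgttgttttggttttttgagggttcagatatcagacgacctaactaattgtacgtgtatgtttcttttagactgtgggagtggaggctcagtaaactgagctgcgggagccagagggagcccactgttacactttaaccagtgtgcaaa
The half-site began 243 bases before the start of C3, 33 before that of F2 and 30 before that of F10, on the opposite strand in the last 2. Hrg had the HNF4 core 35 bases and the C/EBP pattern 133 bases before its start, and C3 had the C/EBP pattern at 45 bases. The windows of Mbl1 and Cpb2 held none of these letter patterns. RefSeq windows were matched for 34 of the 45 members (37 windows). AGGTCA was in 24.3% of them and in 14% of all 32851 windows of this length, GTTAAT in 21.6% and 6.43%, CAAAGT in 24.3% and 12.6%, and TTGCNNAA in 21.6% and 9.56%. The inverted repeat AGGTCANTGACCT, the arrangement known for Fxr, holds the half-site and was in 0 of the 37 member windows and in 0.00609% of all. The last letters of AGGTCA can also be the first of CAAAGT. These are descriptions of letters in a short window.

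The first question was how KO cells differ from WT cells under the same agent. Most of the genes had more RNA in KO cells, across complement, coagulation and fibrinolysis. Under AC 36 of 44 tested genes passed (81.8%), 32 higher and 4 lower in KO, where 42.9% of all tested genes passed, 21.7% higher and 21.2% lower. The median log2 difference was 0.62 over the members and -0.00 over all genes. Under FAC 36 again passed, 31 higher and 5 lower, where 49.5% of all genes passed, 24.6% higher and 24.9% lower, and the medians were 0.55 and -0.01. At least a 2-fold difference was reached by 17 members under each agent, against 10.2% of all genes under AC and 12.3% under FAC. The comparison under AC and that under FAC share no library. In both of them the same 30 members were higher in KO and Cfb, F11 and Cpb2 were lower. Over all 12275 tested genes 1976 were higher in both and 1876 lower in both. C1ra, Clu, Proc, Pros1 and Plau passed in neither. All 3 KO libraries lay above all 3 WT libraries for 34 members under AC (26.5% of all genes) and for 32 under FAC (28.5%), and below them for 5 (26.4%) and 6 (30.6%). Since these are bulk cultures, fewer cells of a type and less RNA per cell cannot be told apart. Hepatocyte markers went with genotype in the same direction as most members. Of 9 tested, 6 were higher and 2 lower in KO under AC, with a median log2 difference of 1.24, and 6 higher and 1 lower under FAC, with a median of 1.13. Apoa1 differed by 1.24 ± 0.08 (edgeR adjusted p = 2.95e-08) and 1.13 ± 0.08 (edgeR adjusted p = 6.09e-08), and Alb by -0.17 ± 0.04 (edgeR adjusted p = 0.00773) and -0.35 ± 0.04 (edgeR adjusted p = 2.6e-05). The lower stellate, macrophage (Adgre1 and Marco) and summed cholangiocyte marker levels of the KO libraries, given above, went with genotype as well. Other markers of these lists went the other way. Cd68 was higher in KO under both agents. Of the 4 tested cholangiocyte markers, 1 was lower under each agent (Spp1) and 2 were higher in KO under FAC. Their median log2 differences were 0.44 under AC and 0.70 under FAC. The part of these marker shifts in the members' differences was not tested.

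**Figure D2:**
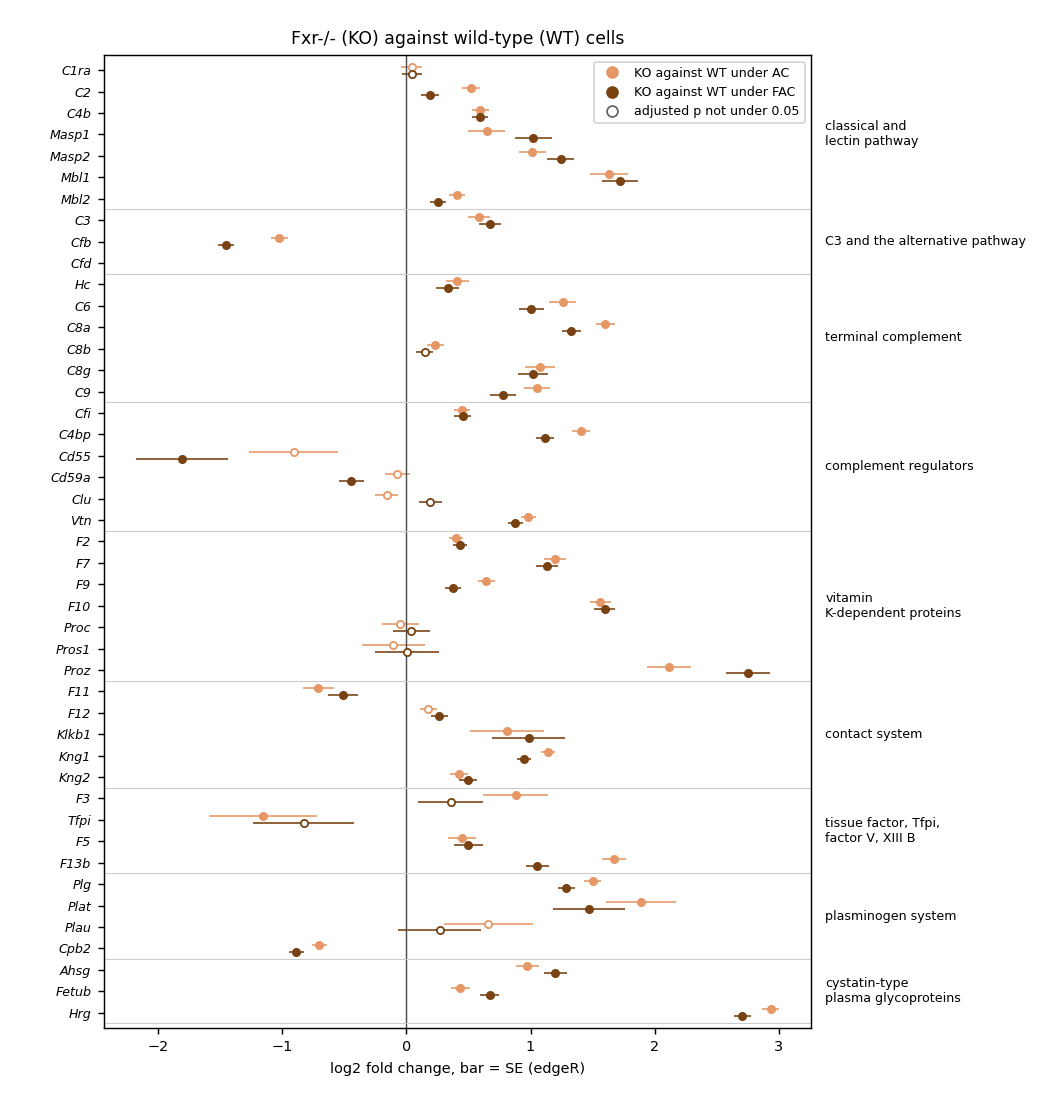
Log2 difference of KO against WT cells for each member under AC (light) and under FAC (dark), with the SE as a bar; filled points passed an adjusted p of 0.05, and Cfd was not tested. Points lie mostly to the right of 0, with Hrg and Proz furthest, while Cfb, F11 and Cpb2 lie to the left under both agents.

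Among initiators of complement, 6 of 7 genes were higher in KO under both agents. Mbl1, a mannose-binding lectin that starts the lectin pathway, had CPM of 5.29, 7.90 and 5.31 in WT AC, 9.48, 9.86 and 9.29 in WT FAC, 22.8, 17.0 and 17.5 in KO AC, and 29.9, 31.7 and 32.7 in KO FAC. No KO library overlapped a WT library, and the log2 differences were 1.63 ± 0.15 (edgeR adjusted p = 2.37e-06) under AC and 1.72 ± 0.15 (edgeR adjusted p = 6.28e-07) under FAC. The other lectin, Mbl2, was more abundant and differed less, by 0.41 ± 0.06 (edgeR adjusted p = 0.000235) and 0.25 ± 0.06 (edgeR adjusted p = 0.00513). Masp2, the lectin-associated protease that cleaves C4 and C2, had CPM of 16.5, 21.6 and 19.3 in WT AC, 22.4, 23.5 and 22.6 in WT FAC, 40.4, 36.7 and 39.0 in KO AC, and 46.5, 55.3 and 60.2 in KO FAC. The genotypes again did not overlap. Its differences were 1.01 ± 0.11 (edgeR adjusted p = 9.53e-06) and 1.24 ± 0.11 (edgeR adjusted p = 8.55e-07), and those of Masp1, its sister protease, 0.65 ± 0.15 (edgeR adjusted p = 0.00367) and 1.02 ± 0.15 (edgeR adjusted p = 9.27e-05). C4b, whose product is cut to build the C3 convertase, had CPM of 571, 559 and 579 in WT AC, 435, 469 and 478 in WT FAC, 781, 880.3 and 923 in KO AC, and 672, 708 and 707 in KO FAC. Its log2 difference was 0.60 ± 0.07 (edgeR adjusted p = 1e-05) under AC and 0.59 ± 0.07 (edgeR adjusted p = 7.3e-06) under FAC. C2, the other part of that convertase, differed by 0.52 ± 0.07 (edgeR adjusted p = 8.64e-05) and 0.19 ± 0.07 (edgeR adjusted p = 0.0442). The second of these turned to -0.01 (limma adjusted p = 0.931) on the log2(TPM + 1) scale. C1ra, a protease of the C1 complex, did not pass, with means of 193 ± 3.05 in WT AC and 199 ± 17.0 CPM in KO AC.

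At the centre of the cascade the members went opposite ways. C3 had CPM of 2587, 2684 and 2704 in WT AC, 1933, 2056 and 1809 in WT FAC, 3411, 4114 and 4439 in KO AC, and 3346, 2983 and 2919 in KO FAC. The KO libraries were higher under each agent. The differences were 0.59 ± 0.09 (edgeR adjusted p = 0.000142) under AC and 0.67 ± 0.09 (edgeR adjusted p = 3.02e-05) under FAC. Cfb, which encodes the protease subunit of the alternative C3 convertase, had CPM of 1496, 1596 and 1592 in WT AC, 1607, 1675 and 1657 in WT FAC, 714, 767 and 824 in KO AC, and 644, 605 and 557 in KO FAC. All 6 KO libraries lay below all 6 WT libraries for Cfb, and the differences were -1.02 ± 0.07 (edgeR adjusted p = 5.19e-08) and -1.45 ± 0.07 (edgeR adjusted p = 1.15e-09). Cfb was thus 2.03-fold lower in KO under AC and 2.74-fold lower under FAC.

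The terminal components that form the membrane attack pore passed in 6 of 6 cases under AC and in 5 of 6 under FAC, all higher in KO. The chains of C8 were unequal in this. C8a had CPM of 32.4, 30.7 and 28.6 in WT AC, 45.9, 53.0 and 48.2 in WT FAC, 90.5, 93.9 and 93.8 in KO AC, and 114, 124 and 131 in KO FAC. Its differences were 1.60 ± 0.08 (edgeR adjusted p = 2.22e-09) and 1.33 ± 0.08 (edgeR adjusted p = 1.08e-08). The neighbouring C8b had CPM of 63.0, 69.7 and 64.5 in WT AC, 84.8, 93.9 and 85.5 in WT FAC, 81.1, 73.2 and 77.6 in KO AC, and 96.6, 95.4 and 101 in KO FAC. Its difference was 0.23 ± 0.07 (edgeR adjusted p = 0.0142) under AC and 0.15 ± 0.07 (edgeR adjusted p = 0.0836) under FAC. C8a therefore stood 3.03-fold higher in KO under AC and C8b 1.18-fold; the difference between the genes was not tested. C8g, the third chain, differed by 1.08 ± 0.12 (edgeR adjusted p = 1.46e-05) and 1.02 ± 0.12 (edgeR adjusted p = 1.38e-05). C9, the pore-forming unit, had CPM of 50.1, 53.3 and 55.0 in WT AC, 79.9, 85.5 and 90.7 in WT FAC, 126, 98.9 and 103 in KO AC, and 128, 151 and 161 in KO FAC. Its groups did not overlap between genotypes under either agent. For C9 the log2 differences were 1.05 ± 0.10 (edgeR adjusted p = 3.6e-06) and 0.78 ± 0.10 (edgeR adjusted p = 3.33e-05). They were, for C6, 1.26 ± 0.11 (edgeR adjusted p = 8.47e-07) and 1.01 ± 0.10 (edgeR adjusted p = 3.74e-06), and, for Hc, which encodes C5, 0.41 ± 0.09 (edgeR adjusted p = 0.00299) and 0.33 ± 0.09 (edgeR adjusted p = 0.00854).

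Regulators of complement were divided. The secreted regulators C4bp, Vtn and Cfi were higher in KO under both agents. C4bp, a cofactor in C4b breakdown, had CPM of 58.6, 63.4 and 59.1 in WT AC, 86.1, 93.4 and 97.4 in WT FAC, 171, 160.0 and 149 in KO AC, and 189, 203 and 209 in KO FAC. It differed by 1.41 ± 0.07 (edgeR adjusted p = 4.29e-09) and 1.12 ± 0.07 (edgeR adjusted p = 3.39e-08). Vtn (vitronectin, which also binds the terminal complex) had CPM of 407, 473 and 447 in WT AC, 609.9, 629.9 and 609 in WT FAC, 905, 869 and 848 in KO AC, and 1084, 1171 and 1141 in KO FAC. It was 1.98-fold higher in KO under AC and 1.84-fold under FAC. Cfi (factor I) had differences of 0.45 ± 0.07 (edgeR adjusted p = 0.000164) and 0.45 ± 0.07 (edgeR adjusted p = 0.000103). The membrane-bound regulators Cd55 and Cd59a were lower in KO under FAC, with log2 differences of -1.81 ± 0.37 (edgeR adjusted p = 0.00121) and -0.44 ± 0.10 (edgeR adjusted p = 0.00262). Cd55 was scarce, with 22 reads summed over KO FAC and 85.1 over WT FAC, and under AC neither passed (-0.91 ± 0.36, edgeR adjusted p = 0.0553 and -0.07 ± 0.10, edgeR adjusted p = 0.579). Clu did not pass in either genotype comparison, with differences of -0.16 ± 0.09 (edgeR adjusted p = 0.191) and 0.19 ± 0.09 (edgeR adjusted p = 0.107).

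Of the vitamin K-dependent proteins, F2, F7, F9, F10 and Proz were higher in KO under both agents, and Proc and Pros1 did not pass. F10, the protease that activates prothrombin, had CPM of 91.3, 118 and 105 in WT AC, 111, 120.5 and 116 in WT FAC, 302, 322 and 304 in KO AC, and 328, 368 and 356 in KO FAC. All KO libraries lay above all WT libraries, and the differences were 1.56 ± 0.08 (edgeR adjusted p = 7.22e-09) and 1.60 ± 0.08 (edgeR adjusted p = 4.47e-09). F7, the partner of tissue factor, had CPM of 23.9, 24.3 and 23.9 in WT AC, 22.1, 21.5 and 22.5 in WT FAC, 49.7, 58.1 and 57.4 in KO AC, and 44.5, 46.9 and 53.6 in KO FAC. It differed by 1.20 ± 0.09 (edgeR adjusted p = 1.75e-07) and 1.14 ± 0.09 (edgeR adjusted p = 2.49e-07). Proz, a cofactor of an inhibitor of factor X, had CPM of 2.13, 2.49 and 2.46 in WT AC, 2.20, 2.63 and 2.24 in WT FAC, 12.4, 9.41 and 8.90 in KO AC, and 13.4, 15.6 and 18.7 in KO FAC. It was 4.33-fold higher in KO under AC and 6.74-fold under FAC, with log2 differences of 2.11 ± 0.18 (edgeR adjusted p = 8.01e-07) and 2.75 ± 0.18 (edgeR adjusted p = 3.39e-08). F2 differed less, with CPM of 687, 774 and 752 in WT AC, 742, 793 and 785 in WT FAC, 965, 959 and 1002 in KO AC, and 1025, 1045 and 1067 in KO FAC. Its differences were 0.40 ± 0.06 (edgeR adjusted p = 8.66e-05) and 0.44 ± 0.06 (edgeR adjusted p = 3.12e-05). F9 differed by 0.64 ± 0.07 (edgeR adjusted p = 6.6e-06) and 0.38 ± 0.07 (edgeR adjusted p = 0.000449). Proc, the precursor of activated protein C, had means of 98.1 ± 10.7, 107 ± 15.7, 94.8 ± 14.1 and 109.5 ± 20.8 CPM in WT AC, WT FAC, KO AC and KO FAC. Its cofactor Pros1 had 24.4 ± 1.93, 19.6 ± 4.07, 22.6 ± 5.68 and 19.6 ± 6.95.

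In the contact system 3 genes were higher and 1 lower in KO under AC, and 4 higher and 1 lower under FAC. F11, the protease that activates factor IX, had CPM of 50.7, 48.2 and 54.7 in WT AC, 58.8, 57.4 and 72.4 in WT FAC, 33.7, 30.2 and 30.0 in KO AC, and 35.9, 45.5 and 51.0 in KO FAC. Its KO libraries were lower than the WT libraries under each agent, with differences of -0.71 ± 0.12 (edgeR adjusted p = 0.000505) and -0.51 ± 0.12 (edgeR adjusted p = 0.00346). Kng1, the precursor of bradykinin, had CPM of 469.6, 531 and 483 in WT AC, 636, 648 and 637 in WT FAC, 1101, 1116 and 1059 in KO AC, and 1238, 1223 and 1244 in KO FAC. The KO libraries of Kng1 lay above all WT libraries, with differences of 1.14 ± 0.05 (edgeR adjusted p = 2.04e-09) and 0.95 ± 0.05 (edgeR adjusted p = 1.12e-08). Kng2, a near-identical kininogen gene, differed by 0.42 ± 0.07 (edgeR adjusted p = 0.000464) and 0.49 ± 0.07 (edgeR adjusted p = 0.000101). Klkb1 (prekallikrein) was scarce, at 3.25 ± 0.287 CPM in WT AC and 5.69 ± 2.24 in KO AC, and differed by 0.81 ± 0.30 (edgeR adjusted p = 0.0423) and 0.98 ± 0.30 (edgeR adjusted p = 0.0139). F12, which begins the contact pathway, passed under FAC (0.27 ± 0.07, edgeR adjusted p = 0.00672) and had a difference of 0.18 ± 0.07 (edgeR adjusted p = 0.0579) under AC.

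F13b, which encodes the carrier subunit of the clot-stabilising factor XIII, had CPM of 10.3, 10.1 and 11.8 in WT AC, 18.9, 21.7 and 20.6 in WT FAC, 35.1, 31.4 and 36.0 in KO AC, and 39.1, 45.5 and 42.6 in KO FAC. The genotypes did not overlap, and the differences were 1.67 ± 0.10 (edgeR adjusted p = 1.86e-08) under AC and 1.05 ± 0.09 (edgeR adjusted p = 1.02e-06) under FAC. F5, the cofactor of factor X, differed by 0.45 ± 0.12 (edgeR adjusted p = 0.00723) and 0.50 ± 0.12 (edgeR adjusted p = 0.00319). F3, which encodes tissue factor, the cell-surface trigger of coagulation, had CPM of 56.8, 71.4 and 56.6 in WT AC, 45.5, 48.0 and 56.5 in WT FAC, 82.5, 129.9 and 128 in KO AC, and 86.5, 66.1 and 39.7 in KO FAC. The KO libraries varied widely for this gene, from 39.7 in KO FAC 6 to 129.9 in KO AC 2, and the difference passed under AC (0.88 ± 0.26, edgeR adjusted p = 0.0203) and not under FAC (0.36 ± 0.26, edgeR adjusted p = 0.282). Tfpi, which inhibits tissue factor, was nearly absent, with 17 reads summed over KO AC and 40 over WT AC, and differed by -1.15 ± 0.44 (edgeR adjusted p = 0.0466) under AC.

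In the plasminogen system the zymogen and its activator were higher in KO and the inhibitor Cpb2 was lower. Plg had CPM of 206, 222 and 222 in WT AC, 300.1, 339.8 and 295 in WT FAC, 577, 643 and 619 in KO AC, and 754, 739 and 789 in KO FAC. Each KO library exceeded each WT library. Plg differed by 1.5 ± 0.07 (edgeR adjusted p = 1.23e-09) and 1.29 ± 0.07 (edgeR adjusted p = 4.44e-09). Plat, which encodes tissue plasminogen activator, had CPM of 15.3, 18.8 and 16.9 in WT AC, 13.5, 13.3 and 14.3 in WT FAC, 57.5, 65.1 and 66.6 in KO AC, and 52.4, 42.8 and 18.8 in KO FAC. KO FAC 6 lay within the range of the WT AC libraries and above the WT FAC libraries. The differences of Plat were 1.89 ± 0.28 (edgeR adjusted p = 0.0004) and 1.47 ± 0.29 (edgeR adjusted p = 0.00171). For Plau (urokinase) they were 0.66 ± 0.36 (edgeR adjusted p = 0.152) and 0.27 ± 0.33 (edgeR adjusted p = 0.524), neither past the threshold. Cpb2, whose product removes plasminogen-binding sites from fibrin, had CPM of 1270.3, 1385 and 1360.0 in WT AC, 1749, 1717 and 1848 in WT FAC, 854, 837 and 780.2 in KO AC, and 962, 998 and 917 in KO FAC. Every KO library of Cpb2 lay below every WT library, with differences of -0.70 ± 0.06 (edgeR adjusted p = 7.11e-07) and -0.89 ± 0.06 (edgeR adjusted p = 4.75e-08).

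The 3 plasma glycoproteins with cystatin-like domains were higher in KO under both agents, and Hrg had the largest difference of all members under AC. Hrg, a histidine-rich protein that binds heparin, plasminogen and fibrinogen, had CPM of 27.4, 27.4 and 25.7 in WT AC, 50.8, 50.8 and 47.1 in WT FAC, 202, 219 and 193 in KO AC, and 319, 332 and 320.5 in KO FAC. It was 7.64-fold higher in KO under AC and 6.53-fold under FAC, with log2 differences of 2.93 ± 0.07 (edgeR adjusted p = 1.39e-12) and 2.71 ± 0.07 (edgeR adjusted p = 2.98e-12). Ahsg (fetuin-A, an inhibitor of calcification) had CPM of 746, 930.0 and 803 in WT AC, 1159.8, 1272 and 1389 in WT FAC, 1787, 1565 and 1513 in KO AC, and 2735, 2944 and 3094 in KO FAC. The genotypes did not overlap under the same agent, and Ahsg differed by 0.97 ± 0.09 (edgeR adjusted p = 2.84e-06) and 1.20 ± 0.09 (edgeR adjusted p = 2.74e-07). Fetub (fetuin-B, a protease inhibitor) differed by 0.44 ± 0.08 (edgeR adjusted p = 0.000493) and 0.67 ± 0.08 (edgeR adjusted p = 9.69e-06).

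Of the calls named above, those of C8b, Klkb1, F3 and Tfpi under AC and of C2 and Klkb1 under FAC were lost without 1 library. By edgeR the adjusted p then reached at most 0.0559 for C8b, 0.0754 for F3 and 0.269 for Tfpi (each without WT AC 1) and 0.203 for Klkb1 (without KO AC 1) under AC. Under FAC it reached 0.151 for C2 (without KO FAC 5) and 0.0629 for Klkb1 (without WT FAC 5) by edgeR. The other 32 calls under AC and 34 under FAC stood without each library in turn.

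**Figure D3:**
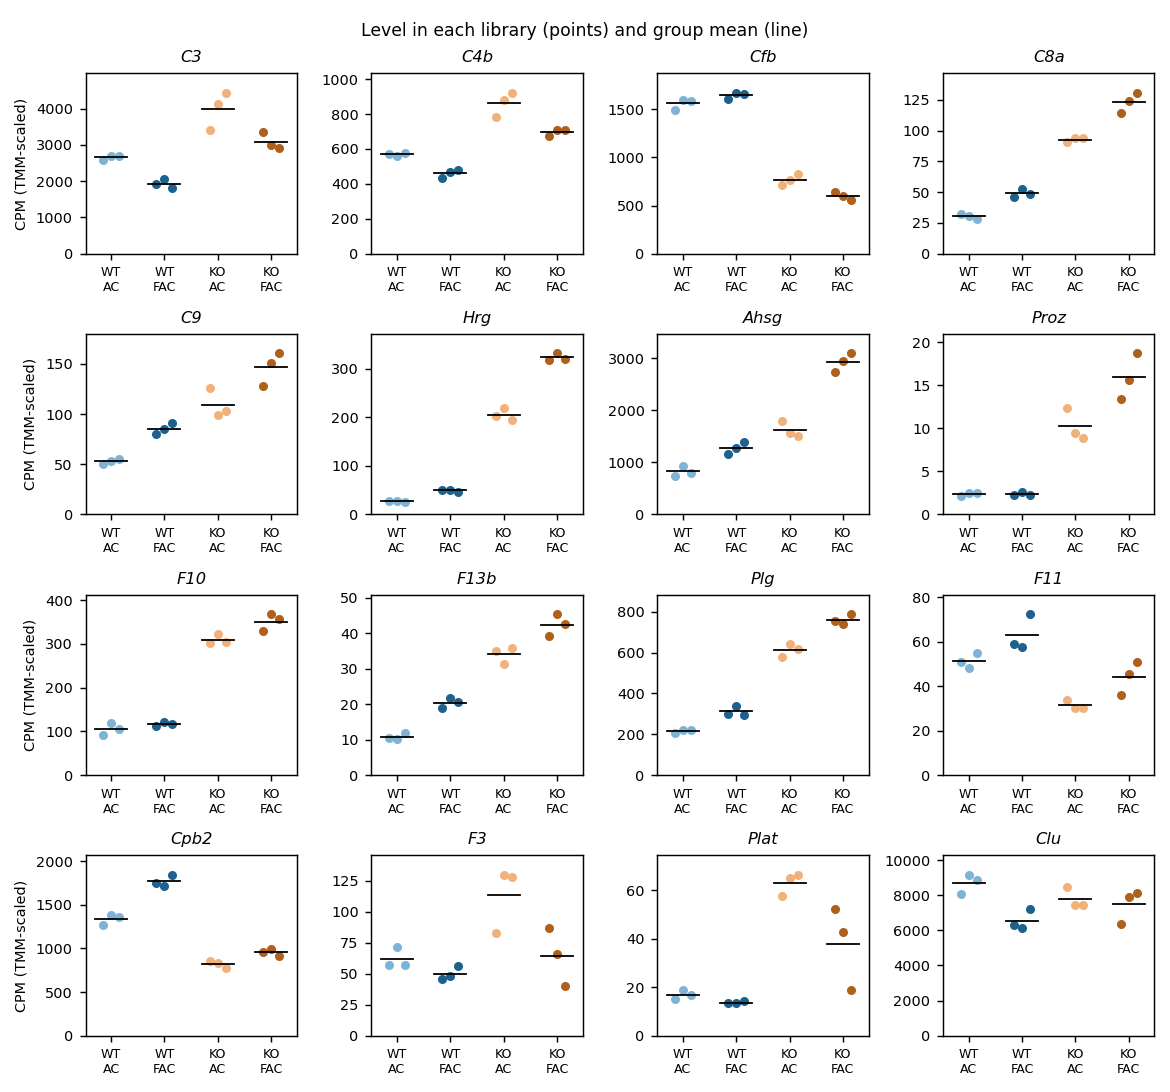
Level of 16 members in each of the 12 libraries as TMM-scaled CPM, with 1 point per library and a line at each group mean; every axis starts at 0. The KO libraries lie above the WT libraries for Hrg, F10 and Plg and below them for Cfb and Cpb2, and the KO FAC libraries of Plat and F3 are spread widely.

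The next question was what FAC did against AC within each genotype. In WT cells 18 of 44 members passed (40.9%), 15 higher and 3 lower with FAC, where 17.2% of all genes passed, 8.7% higher and 8.55% lower. The genes that rose included 5 of 6 terminal complement components, Plg, Cpb2, Ahsg and Hrg, and C3, C4b and Clu fell. In KO cells 25 passed (56.8%), 19 higher and 6 lower, where 29.6% of all genes passed, 15% higher and 14.6% lower. Median log2 changes of the members were 0.14 in WT and 0.21 in KO, against -0.00 over all genes in both. All changes that passed were smaller than 2-fold in both genotypes, while 2.36% of all genes in WT and 3.97% in KO passed with at least a 2-fold change. The FAC libraries lay above the AC libraries for 22 members in WT (21.6% of all genes) and 21 in KO (19.7%), and below them for 7 (21.6%) and 7 (19.1%).

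Hepatocyte markers moved with FAC too, as 5 of 9 rose and 2 fell in WT and 7 rose in KO, with medians of 0.45 in both. Of the 4 tested macrophage markers 1 rose and 2 fell in WT and 1 rose in KO. Sinusoidal endothelial markers had 3 of 7 higher in WT (median 0.46) and 0 past the threshold in KO (median -0.15). Of the 4 tested cholangiocyte markers 0 passed in WT (median 0.01) and 2 rose in KO (median 0.59). Stellate and fibroblast markers had 1 of 6 lower in each genotype. The part of these marker shifts in the members' changes was not tested.

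The split between higher and lower in KO moved with the scale. On log2(TPM + 1) the median of all genes itself fell by 0.15 in KO, and with limma 6 members were higher and 12 lower, whereas log2(FPKM + 1) gave 14 higher and 9 lower. The 13 rises that missed the threshold on TPM were those of Masp2, C6, C8a, C8b, C9, C4bp, F11, F12, Kng1, F13b, Plg, Cpb2 and Fetub. After each TPM library was centred on its median gene, 20 members were higher and 4 lower. Relative to the median of all genes, the median of the members was 0.215 higher with edgeR and 0.166 higher on TPM. In WT these scales left 14 or 15 members higher and 3 lower.

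A total of 14 members rose with FAC in both genotypes, Mbl1, C6, C8a, C8b, C8g, C9, C4bp, Vtn, Kng1, F13b, Plg, Cpb2, Ahsg and Hrg, and C3 and C4b fell in both. Over all 12275 tested genes 585 rose in both and 587 fell in both. The comparisons in WT and in KO share no library. Across the 44 members the log2 changes in WT and KO had a Pearson correlation of 0.688 and a Spearman correlation of 0.690, against 0.499 by both measures over all 12275 genes; genes are not independent replicates. Of the changes with FAC that passed, that of Kng1 in KO turned direction under an alternative, from 0.18 ± 0.05 (edgeR adjusted p = 0.0249) to -0.02 (limma adjusted p = 0.801) on log2(TPM + 1).

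**Figure D4:**
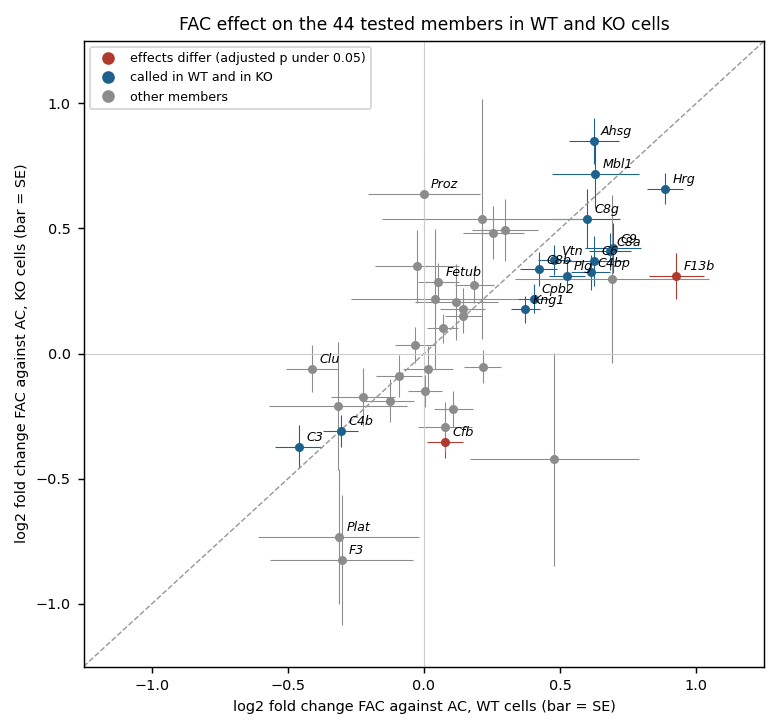
Log2 change with FAC against AC in WT cells (horizontal axis) and KO cells (vertical axis) for the 44 tested members, with SE bars and a dashed line of equal change. Blue points passed in both genotypes, and the red points of Cfb and F13b mark the members whose changes differed between genotypes.

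Of the 6 terminal complement genes 5 rose with FAC in both genotypes. In KO the rises of C6, C8a, C8b and C9 missed the threshold on log2(TPM + 1), and that of C8g passed there too. C9 rose from a mean of 52.8 ± 2.50 to 85.4 ± 5.40 CPM in WT and from 109 ± 14.8 to 146 ± 16.7 in KO. These were changes of 0.69 ± 0.10 (edgeR adjusted p = 0.000526) and 0.42 ± 0.10 (edgeR adjusted p = 0.00721). C8a rose by 0.68 ± 0.08 (edgeR adjusted p = 7.62e-05) in WT and 0.41 ± 0.07 (edgeR adjusted p = 0.00139) in KO. C8b, which differed little between genotypes, rose by 0.42 ± 0.07 (edgeR adjusted p = 0.00099) and 0.34 ± 0.07 (edgeR adjusted p = 0.00263). C8g rose by 0.60 ± 0.12 (edgeR adjusted p = 0.00489) and 0.54 ± 0.12 (edgeR adjusted p = 0.00428) and C6 by 0.62 ± 0.11 (edgeR adjusted p = 0.00174) and 0.37 ± 0.10 (edgeR adjusted p = 0.0133). Hc, at 99.6 ± 5.94 CPM in WT AC and 101 ± 5.91 in WT FAC, did not pass in WT (0.01 ± 0.09, edgeR adjusted p = 0.94) or KO (-0.06 ± 0.09, edgeR adjusted p = 0.637).

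Of the 7 classical and lectin pathway genes 1 rose and 1 fell with FAC in WT, and 2 rose and 2 fell in KO, while C3 fell in both genotypes. C3 went from 2658 ± 62.5 to 1933 ± 124 CPM in WT and from 3988 ± 526 to 3083 ± 230.2 in KO. The log2 changes were -0.46 ± 0.09 (edgeR adjusted p = 0.0028) and -0.37 ± 0.09 (edgeR adjusted p = 0.00623), with no overlap of FAC and AC libraries in either. C4b fell too, with changes of -0.31 ± 0.07 (edgeR adjusted p = 0.00595) and -0.31 ± 0.06 (edgeR adjusted p = 0.00345). Mbl1 rose, by 0.63 ± 0.16 (edgeR adjusted p = 0.0156) and 0.72 ± 0.14 (edgeR adjusted p = 0.002), and Mbl2 did not pass (0.00 ± 0.06, edgeR adjusted p = 0.975 and -0.15 ± 0.06, edgeR adjusted p = 0.0931). Masp2 passed in KO (0.48 ± 0.11, edgeR adjusted p = 0.00449), where its 3 FAC libraries lay above its AC libraries, and in WT its change was 0.25 ± 0.11 (edgeR adjusted p = 0.136). C2 fell in KO (-0.22 ± 0.07, edgeR adjusted p = 0.0329) and had a change of 0.11 ± 0.07 (edgeR adjusted p = 0.337) in WT.

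Clu, the most abundant member, had CPM of 8063, 9179 and 8845 in WT AC, 6293, 6122 and 7205 in WT FAC, 8494, 7435 and 7438 in KO AC, and 6389, 7883 and 8143 in KO FAC. All WT FAC libraries lay below all WT AC libraries, a change of -0.41 ± 0.09 (edgeR adjusted p = 0.01), while the KO groups overlapped (-0.06 ± 0.09, edgeR adjusted p = 0.665). The difference of these changes for Clu, KO minus WT, did not pass (0.35 ± 0.13, edgeR adjusted p = 0.171). C4bp rose by 0.61 ± 0.07 (edgeR adjusted p = 9.41e-05) in WT and 0.32 ± 0.07 (edgeR adjusted p = 0.00424) in KO, and Vtn by 0.48 ± 0.06 (edgeR adjusted p = 0.000182) and 0.37 ± 0.06 (edgeR adjusted p = 0.000687). Cd59a fell in KO, with a change of -0.29 ± 0.10 (edgeR adjusted p = 0.0437).

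Of the 7 vitamin K-dependent proteins 1 rose with FAC in WT (F9) and 1 in KO (Proz). F2 had changes of 0.07 ± 0.06 (edgeR adjusted p = 0.442) in WT and 0.10 ± 0.06 (edgeR adjusted p = 0.193) in KO. F7 had -0.13 ± 0.09 (edgeR adjusted p = 0.365) and -0.19 ± 0.08 (edgeR adjusted p = 0.111), and F10 0.14 ± 0.08 (edgeR adjusted p = 0.267) and 0.18 ± 0.08 (edgeR adjusted p = 0.114), and all 3 missed the threshold. F13b had the largest rise of the members in WT, from 10.7 ± 0.902 to 20.4 ± 1.40 CPM or 0.93 ± 0.10 (edgeR adjusted p = 4.72e-05), and rose by 0.31 ± 0.09 (edgeR adjusted p = 0.0215) in KO. Proz rose in KO by 0.64 ± 0.15 (edgeR adjusted p = 0.00704) and had -0.00 ± 0.21 (edgeR adjusted p = 0.998) in WT. Its difference, KO minus WT, did not pass (0.64 ± 0.26, edgeR adjusted p = 0.189). F11 and F12 passed in KO, where they rose by 0.50 ± 0.12 (edgeR adjusted p = 0.00941) and 0.27 ± 0.07 (edgeR adjusted p = 0.0107), and had changes of 0.30 ± 0.12 (edgeR adjusted p = 0.108) and 0.19 ± 0.07 (edgeR adjusted p = 0.0871) in WT. Kng1 rose in WT by 0.37 ± 0.05 (edgeR adjusted p = 0.000484). F9 rose in WT by 0.22 ± 0.07 (edgeR adjusted p = 0.0415).

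Among fibrinolysis genes and glycoproteins, Plg rose by 0.52 ± 0.07 (edgeR adjusted p = 0.000188) in WT and 0.31 ± 0.07 (edgeR adjusted p = 0.00383) in KO, and Cpb2 by 0.40 ± 0.06 (edgeR adjusted p = 0.000438) and 0.22 ± 0.06 (edgeR adjusted p = 0.0126). Cpb2 was thus lower in KO than in WT but rose with FAC in both. Hrg rose from 26.8 ± 1.0 to 49.6 ± 2.15 CPM in WT and from 205 ± 13 to 324 ± 7.30 in KO. The log2 changes were 0.89 ± 0.07 (edgeR adjusted p = 3.9e-06) and 0.66 ± 0.06 (edgeR adjusted p = 1.42e-05). Ahsg had the largest rise of the members in KO, 0.85 ± 0.09 (edgeR adjusted p = 4.03e-05), beside 0.62 ± 0.09 (edgeR adjusted p = 0.000534) in WT. Fetub passed in KO (0.29 ± 0.08, edgeR adjusted p = 0.0117) and had 0.05 ± 0.08 (edgeR adjusted p = 0.68) in WT. F3 fell in KO, with a change of -0.82 ± 0.26 (edgeR adjusted p = 0.0373), although KO AC 1 and KO FAC 4 overlapped, and had -0.30 ± 0.26 (edgeR adjusted p = 0.474) in WT. Plat had a value of -0.73 ± 0.27 (edgeR adjusted p = 0.0646) in KO, which did not pass although the KO FAC libraries lay below the KO AC libraries.

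Of the calls in WT, those of Mbl1, Clu and F9 were lost without 1 library, with adjusted p of up to 0.0761 (Mbl1, without WT AC 3), 0.0503 (Clu, without WT FAC 5) and 0.176 (F9, without WT FAC 6) by edgeR. In KO this held for C2 (up to 0.141, without KO AC 3), C6 (0.0612, without KO AC 3), Cd59a (0.161, without KO FAC 4), Kng1 (0.0839, without KO AC 3), F3 (0.117, without KO AC 3), F13b (0.0948, without KO FAC 5), Cpb2 (0.0593, without KO FAC 5) and Fetub (0.0552, without KO FAC 5).

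F3 and Plat varied with the division of the KO libraries. KO AC 1 and KO FAC 6, which had the highest scores of their groups on the third component, also had the lowest level of both genes in their groups: 82.5 and 39.7 CPM for F3 and 57.5 and 18.8 for Plat. Values of these genes without both libraries therefore follow in part from which libraries are left out, and they are given without a test. F3 then differed between KO and WT by 1.06 under AC and 0.61 under FAC and had -0.75 with FAC in KO, and Plat had 1.95, 1.80 and -0.46. Over all members 25 passed without both libraries for FAC in KO, and 34 and 37 passed between genotypes under AC and FAC. These counts too depend on which libraries are left out, and the share of all genes is not given beside them. KO FAC 5, which also had a positive score on the third component, was kept. The calls lost were those of Cd59a and Kng1 with FAC in KO (edgeR adjusted p = 0.0877 and 0.0723) and those of Klkb1 and Tfpi under AC (0.186 and 0.0894). The part of the library division in these values was not tested.

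The last comparison asked whether the FAC change differed between genotypes, as KO minus WT. For 2 of 44 members (4.55%) this test passed, both with a lower value in KO, where 3.15% of all genes passed, 1.87% higher and 1.28% lower. Cfb had means of 1561 ± 56.8 and 1646 ± 34.8 CPM in WT and 768 ± 55.5 and 602 ± 43.1 in KO. Its changes were 0.08 ± 0.07 (edgeR adjusted p = 0.462) in WT and -0.35 ± 0.07 (edgeR adjusted p = 0.00167) in KO. The difference for Cfb was -0.43 ± 0.09 (edgeR adjusted p = 0.0291). That for F13b, which rose in both genotypes and more so in WT, was -0.62 ± 0.14 (edgeR adjusted p = 0.0306). For C3, F2, Kng1, Fetub, Plg and F3 the differences were 0.09, 0.03, -0.19, 0.23, -0.21 and -0.52, none past the threshold. At an unadjusted p under 0.05 the test found 14 members, 11 of them below 0, where 19.1% of all genes passed. Both calls depended on single libraries: the adjusted p of Cfb reached 0.0748 without WT FAC 5 and that of F13b 0.0855 without WT AC 2, by edgeR.

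Several members lie next to each other in the genome (GENCODE M21, GRCm38). On chromosome 16 Ahsg, Fetub, Hrg, Kng2 and Kng1 follow one another from 22891277 to 23082078, and all were higher in KO under both agents, by 0.42 to 2.93 under AC. The next gene, Eif4a2, which encodes a translation factor, was also higher, by 1.58 ± 0.08 (edgeR adjusted p = 2.91e-09) and 1.37 ± 0.08 (edgeR adjusted p = 1.08e-08). On the other side Dnajb11, which encodes a chaperone of the endoplasmic reticulum, was higher as well, by 0.21 ± 0.07 (edgeR adjusted p = 0.0346) and 0.40 ± 0.07 (edgeR adjusted p = 0.000569). Tbccd1, the gene beyond it, was not past the threshold (-0.12 ± 0.14, edgeR adjusted p = 0.517 and -0.14 ± 0.14, edgeR adjusted p = 0.431). On chromosome 8 F7, F10 and Proz lie together (13026034 to 13076026) and all were higher, between Mcf2l (0.16 ± 0.33, edgeR adjusted p = 0.72 under AC) and Pcid2 (0.06 ± 0.13, edgeR adjusted p = 0.757 under AC), which did not pass. The genes beyond these did pass. Atp11a was higher, by 0.78 ± 0.08 (edgeR adjusted p = 8.89e-06) under AC and 0.37 ± 0.08 (edgeR adjusted p = 0.00253) under FAC. Cul4a was lower, by -0.25 ± 0.08 (edgeR adjusted p = 0.022) and -0.62 ± 0.08 (edgeR adjusted p = 3.29e-05). Neighbours also went opposite ways. On chromosome 17 Cfb (34856374 to 34862518) was lower beside C2 (34862604 to 34898265), which was higher. Elsewhere on chromosome 8 F11 (45241174 to 45262031) was lower beside Klkb1 (45266689 to 45294859), which was higher.

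**Figure D5:**
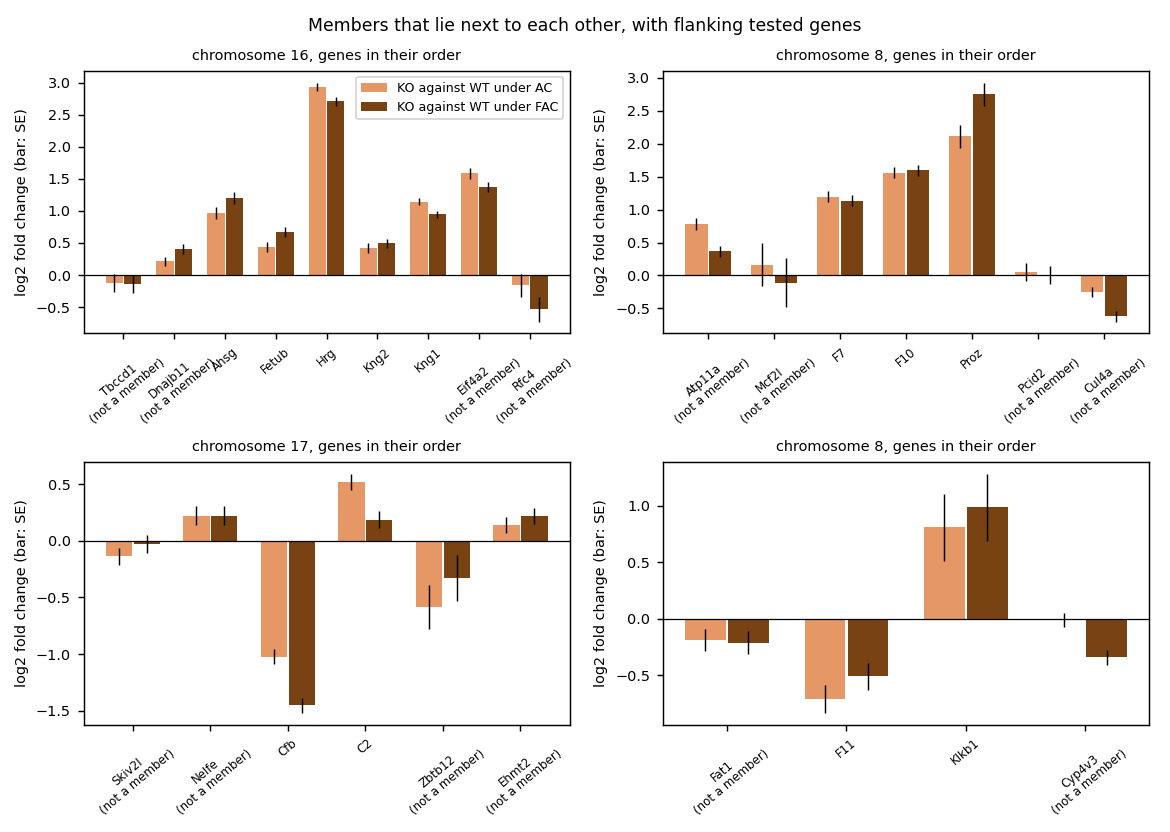
Log2 difference of KO against WT under AC (light) and FAC (dark) with SE bars for members that lie next to each other and the tested genes beside them, in their order on the chromosome. All 5 members on chromosome 16 and F7, F10 and Proz on chromosome 8 are above 0, while Cfb and F11 are below 0 beside C2 and Klkb1.

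Some of these genes may share reads with others, which was not measured. Another protein-coding or antisense gene overlaps C2, Cfb, Masp1, Masp2, C8a, C8g, Klkb1, Plg, Hc, Cd55 and Ahsg. As the strand setting is not given, reads from the overlap of such pairs cannot be told apart here. Gm20547 lies on the same strand as C2 and Cfb, and Gm45753 on that of Klkb1, so for these the setting would not help. Near-identical copies exist for C4b (C4a), C1ra (C1rb), Kng1 (Kng2) and Cd59a (Cd59b). C4a had means of 2.31 to 8.80 CPM beside 461 to 861 for C4b, C1rb at most 0.0582, and Cd59b 0.565 to 4.19 beside 35.4 to 48.2 for Cd59a. With the reads of each pair summed, the fall of Cd59a with FAC in KO was -0.26 ± 0.10 (SE, edgeR adjusted p = 0.0577), and in KO against WT under FAC the pair still passed at -0.30 ± 0.10 (SE, edgeR adjusted p = 0.0197).

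Related genes outside the 45 were counted in lists. All 3 fibrinogen chains were higher in KO under both agents. Fga had CPM of 132, 159 and 129 in WT AC, 154, 171 and 201 in WT FAC, 779.8, 682 and 636 in KO AC, and 1510.3, 1763 and 1918 in KO FAC. It differed by 2.32 ± 0.13 (edgeR adjusted p = 1.75e-08) and 3.30 ± 0.13 (edgeR adjusted p = 6.34e-10). With FAC 1 of the 3 chains rose in WT (Fgg, 1.04 ± 0.13, edgeR adjusted p = 0.000301) and 3 in KO, where Fga changed by 1.31 ± 0.12 (edgeR adjusted p = 1.89e-05). For 2 chains the FAC change was larger in KO than in WT (Fga, 0.98 ± 0.17, edgeR adjusted p = 0.0114). Of 7 serpins that inhibit coagulation or fibrinolysis proteases, 5 were higher and 2 lower in KO under AC and 6 higher under FAC. Serpinf2 (antiplasmin) had the largest rise, by 1.52 ± 0.31 (edgeR adjusted p = 0.00343) and 2.45 ± 0.32 (edgeR adjusted p = 0.000147). Serpina5 (protein C inhibitor) had the largest fall under AC, -1.57 ± 0.34 (edgeR adjusted p = 0.00257). With FAC 2 serpins rose in WT, with Serpinc1 (antithrombin) at 0.62 ± 0.06 (edgeR adjusted p = 1.44e-05), and 1 fell, while 3 rose in KO, with Serpind1 (heparin cofactor II) at 1.20 ± 0.09 (edgeR adjusted p = 2.8e-06).

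Of 5 vitamin K cycle genes 1 was higher and 4 lower in KO under both agents. Vkorc1, the epoxide reductase that is the target of warfarin, was higher by 0.60 ± 0.12 (edgeR adjusted p = 0.00154) and 0.84 ± 0.12 (edgeR adjusted p = 6.99e-05). Nqo1 had the largest fall, -0.89 ± 0.08 (edgeR adjusted p = 1.86e-06) and -0.98 ± 0.08 (edgeR adjusted p = 5.08e-07). With FAC none of the 5 passed in WT and Vkorc1 rose in KO (0.55 ± 0.12, edgeR adjusted p = 0.00374). Among 16 transcription factors of plasma protein genes 2 were higher and 2 lower in KO under each agent, with Foxa3 the highest (0.90 ± 0.13, edgeR adjusted p = 0.000113 and 0.57 ± 0.13, edgeR adjusted p = 0.00262) and Nr1h4 the lowest. With FAC 0 rose in either genotype, and 4 fell in WT and 6 in KO, with Nr1h4 lowest in both, at -0.95 ± 0.14 (edgeR adjusted p = 0.00063) and -0.88 ± 0.16 (edgeR adjusted p = 0.00124).

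Among 5 other complement components 2 were higher in KO under AC and 3 higher and 1 lower under FAC, led by C4a (1.38 ± 0.29, edgeR adjusted p = 0.00191 under AC). Of 9 other complement regulators and receptors 5 were higher and 4 lower under AC, from Cd59b (2.61 ± 0.29, edgeR adjusted p = 1.11e-05) to Itgam, which had 1.27 ± 0.110 CPM in WT AC and 0.0745 ± 0.0843 in KO AC, and 5 higher and 2 lower under FAC. Of 8 other coagulation genes 1 was higher (F2rl1, 0.86 ± 0.10, edgeR adjusted p = 1.38e-05) and 3 lower under AC (Procr lowest, -1.27 ± 0.16, edgeR adjusted p = 3.11e-05), and 3 higher and 1 lower under FAC. Of 6 fibrinolysis receptors and inhibitors 2 were higher and 1 lower under AC, and 2 higher under FAC. With FAC, in the order named, these lists had 0 higher and 2 lower, 2 and 1, 1 and 2, and 0 and 0 in WT. In KO they had 0 and 1, 3 and 0, 2 and 0, and 2 and 0.

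By the pattern of log2 CPM over the 12 libraries, the genes most like C3 were St3gal1, Shroom1, Myo1d, Flt4 and Col18a1 (Pearson correlation 0.984 to 0.975), and the member most like it was C4b at 0.967. Those most like F2 were Slc3a1, Agt, Arhgap10, Pltp and F10 (0.989 to 0.985). These correlations run over libraries of 4 groups that differ in genotype and agent, and they are given as a description.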

How the data were processed

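RNA-seq libraries of primary hepatocytes, sequenced on a BGISEQ-500 instrument per the labels, were grouped by genotype and agent as the labels give them. The authors deposited estimated counts, FPKM and TPM per gene and library, made with RSEM on mm10 and GRCm38.p6, per the submitters' processing notes. The aligner, annotation release and strand setting are not given in the sources used here, and RSEM versions are not either. A further 12 numeric columns could not be tied to a library and were not used.

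The deposited estimated counts were rounded and fitted with edgeR 4.0.16 (R 4.3.3) as 12 libraries in 4 groups, after a filter at a minimum count of 10 (filterByExpr) and TMM scaling. The quasi-likelihood test used a trended dispersion with robust estimation, and p-values were adjusted by Benjamini-Hochberg over all 12275 genes. A gene passed at an adjusted p under 0.05. The SE was taken from the log2 fold change and its F statistic. Between-gene levels rest on the deposited FPKM values, and the deposited TPM values served alternatives in limma 3.58.1 with a pseudocount of 1. The procedure was tested on simulated data. The common biological coefficient of variation was 10.8%.

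The alternatives were other scalings and filters, DESeq2 1.42.0, limma on FPKM (pseudocounts 1 and 0.1) or TPM, fits of the compared groups alone, fits without trend and robust estimation, a replicate block, and each library left out. Summing near-identical copies and centring TPM on the median gene were added after seeing the data. The members and all gene lists were chosen with earlier results of these data known. The rule for named genes took C3, F2, Kng1, Fetub, Plg and F3 in each comparison and, among members with at least 1 FPKM, up to 5 that rose and 5 that fell most. Of each list of other genes it took the largest rise and fall that passed. Other members were named after their values were seen. Each library was fitted as its own sample. Counts of libraries in a group differed from each other by more than sampling noise (chi-square per degree of freedom 3.29 to 35.6). Such a check cannot tell separate animals or cultures from repeat libraries of the same cells. Figures were drawn with matplotlib 3.10.9.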

Additional observations from a re-analysis of the deposited data

Results flagged for a closer look

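The test for a difference in the FAC change between genotypes passed for 2 of 44 members (4.55%), Cfb and F13b. Over all genes 3.15% passed. The value for KO minus WT was -0.43 ± 0.09 on the log2 scale for Cfb (SE, edgeR adjusted p = 0.0291) and -0.62 ± 0.14 for F13b (SE, edgeR adjusted p = 0.0306). All 3 KO FAC libraries of Cfb lay below the KO AC libraries. The WT FAC libraries lay above the WT AC libraries, but that change did not pass (0.08 ± 0.07, edgeR adjusted p = 0.462). For F13b the FAC libraries lay above the AC libraries in both genotypes. Both calls missed the threshold when 1 of several libraries was left out, as given above. With the replicate block they missed it too (edgeR adjusted p = 0.0702 for Cfb and 0.0579 for F13b).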

How the results depend on the processing

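With a minimum change of 1.5-fold added to the threshold, 9 members passed for FAC in WT, 5 for FAC in KO and 1 for the difference between genotypes. The share of all genes at this threshold is not given here. For that difference 4 members passed with limma on log2(TPM + 1), 1 passed without trend and robust estimation and 0 passed with the replicate block. Leaving out 1 library at a time gave 15 to 18 members for FAC in WT, 19 to 26 for FAC in KO, 32 to 34 and 34 to 37 for the genotypes under AC and FAC, and 0 to 3 for the difference. Kng1 with FAC in KO turned to -0.02 on log2(TPM + 1). The cause was not tested. On that scale the median of all genes moved to -0.10 for FAC in WT, -0.15 for FAC in KO, -0.11 between genotypes under AC and -0.17 under FAC. Of the other values for single named genes under an alternative, 1156 stayed on the same side of the threshold, 56 lost the threshold and 3 gained it. A change of direction was counted only where the main or the alternative value passed. In all alternatives 15 of 18 calls for FAC in WT, 8 of 25 for FAC in KO, 30 of 36 between genotypes under AC and 29 of 36 under FAC stood. With the replicate number as a block, 35 members passed between genotypes under each agent. Deviations of same-numbered libraries had correlations of -0.14, -0.09 and 0.01 under AC and 0.10, -0.10 and 0.21 under FAC. Those of libraries with different numbers ran from -0.26 to 0.22. So few libraries cannot decide whether the numbers pair them, and the labels do not say so. No paired analysis was possible for FAC against AC because those groups share no replicate number. Scarce members (Cd55, Tfpi, Klkb1, Plau and Cfd, each below 2 FPKM) limit what 3 libraries can resolve.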
